A study of Arabidopsis thaliana with 12 samples.

Results

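RDM4 (AT2G30280) and 9 genes for subunits of RNA polymerase II were followed in leaves of Arabidopsis thaliana before and during cold: NRPB1 (AT4G35800), NRPB2 (AT4G21710), NRPB3 (AT2G15430), NRPB4 (AT5G09920), NRPB5 (AT3G22320), NRPB6A (AT5G51940), NRPB7 (AT5G59180), NRPB9A (AT3G16980) and NRPB11 (AT3G52090). The 10 genes were taken by locus code from 25371 loci with a probe on the array, and all 10 were among the 20794 loci tested. Col wild type and 35S::RDM4 seedlings, both of the Col ecotype, were 2 weeks old when they were moved to 4 °C. Each genotype was sampled at 0 h (room temperature), 3 h and 48 h. RNA was pooled from the leaves of many seedlings and labelled with Cy3 for one-colour Agilent arrays, 2 per genotype and time and 12 in all. The 35S promoter is a strong viral promoter active in most plant tissues, and the sources used here do not say whether the overexpression samples came from 1 transgenic line or more. The labels call the 2 samples of a group biological replicates but do not say that they came from separate plates, so the p-values describe only the spread between these samples.

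RNA polymerase II transcribes the protein-coding genes of plants from a core of large catalytic subunits, smaller subunits on which the core is assembled, and a detachable stalk. RDM4, also called DMS4, resembles the yeast protein Iwr1, which binds the assembled polymerase and accompanies it into the nucleus. In Arabidopsis, RDM4 associates with polymerase II and with the plant-specific polymerase V, and is needed for RNA-directed DNA methylation.

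In these leaves the subunit transcripts did not follow a single course in the cold. After 48 h, NRPB7 was 2.34-fold higher than at 0 h in wild type and 2.43-fold higher in 35S::RDM4, NRPB3 1.54-fold and 1.56-fold, and NRPB6A 1.43-fold and 1.47-fold, while NRPB11 was 1.21-fold and 1.16-fold lower. The transcripts of the catalytic subunits NRPB1 and NRPB2 were lowest at 3 h in wild type on their brightest probes, but a second, dim probe of NRPB2 was lowest at 48 h. Between 35S::RDM4 and wild type, where RDM4 itself was 44.1-fold to 51.9-fold higher, none of the 9 subunit genes passed the test at any of the 3 times.

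A level is the log2 of a probe's processed signal minus that array's 75th percentile on the same scale. Levels are compared only for 1 probe between arrays, never between genes, because probes differ in how brightly they report. A difference between groups was called when limma's p-value, adjusted by Benjamini-Hochberg over all 20794 loci of the comparison, was below 0.05, and a locus was represented by its brightest kept probe. Errors of differences are standard errors, with n = 2 arrays per group. Room temperature arrays from 3 h and 48 h were not analysed here, so time at 4 °C and time of day cannot be told apart.

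The 75th percentile of processed signal ranged from 2709 to 5665 over the arrays, the scanner called 73.3 to 76.7% of each array's probes well above background, and 0 spots were saturated. The 12 arrays lay on 5 slides scanned on 2 days. All wild-type replicate 1 arrays shared a slide, all wild-type replicate 2 arrays shared another with the first 35S::RDM4 array of 48 h, and both 35S::RDM4 arrays of 48 h were scanned on the second day. No slide held both genotypes at 0 h or at 3 h, so a genotype difference at these times cannot be told apart from one between slides. The 4 leaf markers (RBCS1A, LHCA1, LHCB2.1 and GAPA) were above background on every array, with a summed signal, not scaled to the array, of 1092210 to 1448590. Among them LHCB2.1, a light-harvesting protein gene, was higher in the cold, by 2.12 at 3 h and 2.18 at 48 h in wild type and by 2.01 at both times in 35S::RDM4, and the other 3 were not called. All 5 root markers (EIR1, IRT1, TIP2;3, SHV2 and EXPA7) were above background on every array as well. In wild type their summed signal went from 9433 to 18039 before cold, from 13406 to 20605 after 3 h and from 17312 to 19370 after 48 h; in 35S::RDM4 it was 12446 to 13817, 18535 to 19231 and 19805 to 27723. At 48 h against 0 h, 4 root markers were called higher and 1 lower in each genotype. Of all loci, 39.7% were higher and 39% lower in wild type, and 40.8% and 38.7% in 35S::RDM4. At 3 h the difference between the genotypes' responses was called for 5 of 5 markers, and for 7.33% of all loci. Between the genotypes themselves, 3 markers were called lower in 35S::RDM4 at 0 h, 2 higher at 3 h and 1 higher at 48 h. In either direction, 12.9%, 4.89% and 3.7% of all loci were called at these times. The part of these markers in the results for the polymerase genes was not tested.

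RDM4, the Iwr1-like factor, was first read on each array. In wild type its processed signal read 4048 and 7591 before cold, 3995 and 6176 after 3 h, and 4334 and 5092 after 48 h. In 35S::RDM4 it read 293236 and 272125 before cold, 269321 and 230715 after 3 h, and 199672 and 242635 after 48 h. The genotypes did not overlap at any time, as their labels call for, and at 0 h the level was 5.46 ± 0.10 higher in 35S::RDM4 (adjusted p = 1.77e-07). The probe does not separate the transgene's RNA from that of the resident gene.

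**Figure D1:**
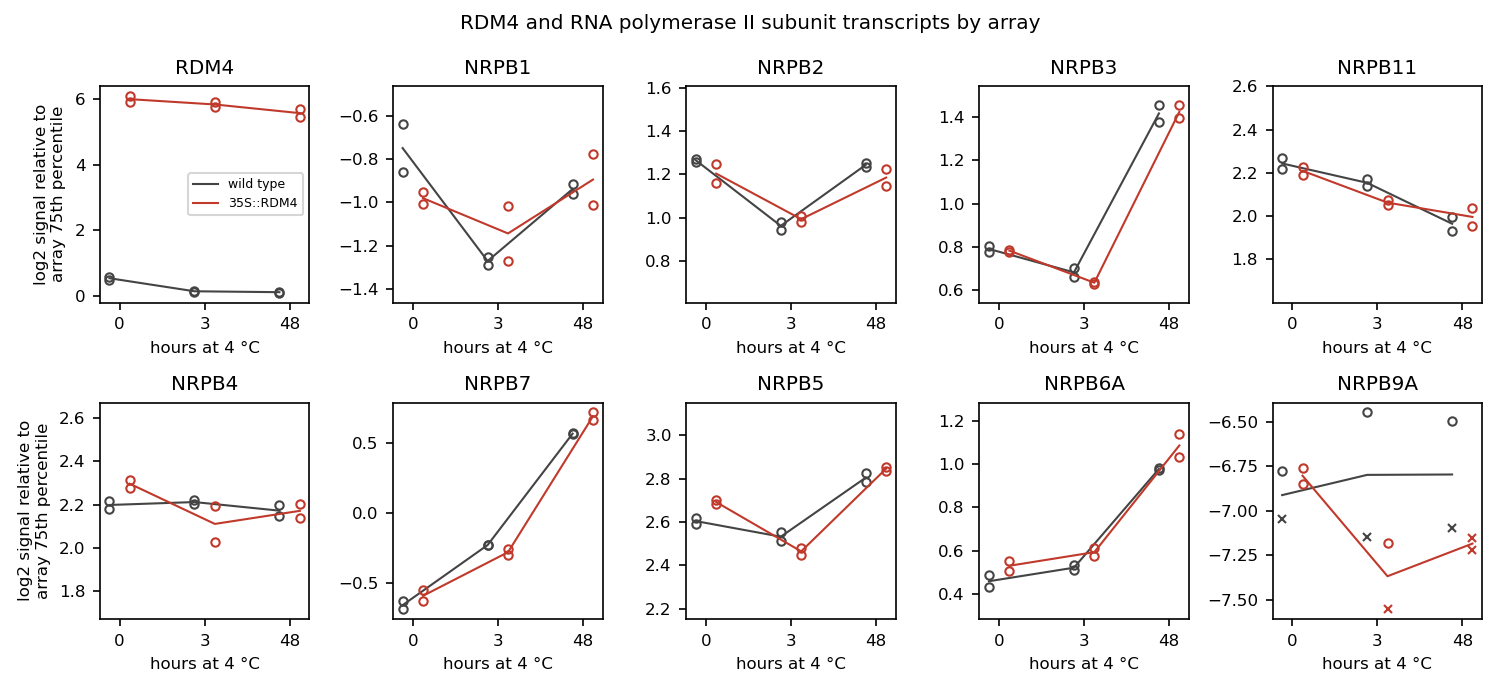
Levels of the 10 transcripts by array (circles; crosses in the NRPB9A panel mark arrays not well above background), in log2 units relative to each array's 75th percentile, against hours at 4 °C in equally spaced steps. Lines join group means of 2 arrays, and each panel has its own vertical axis. NRPB7, NRPB3 and NRPB6A are higher at 48 h in both genotypes, NRPB11 is lower, and RDM4 is the only panel in which the genotypes are far apart.

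The resident RDM4 transcript of wild type was highest at 0 h. The levels read 0.58 and 0.50 before cold, 0.16 and 0.12 after 3 h, and 0.10 and 0.13 after 48 h. Both cold groups lay below the 0 h group without overlap, and the fall of RDM4 was called, by 0.40 ± 0.10 for the 3 h arrays (adjusted p = 0.0061) and by 0.43 ± 0.10 for those of 48 h (adjusted p = 0.00337). Within the 2 slides that held all 3 wild-type times, the difference was −0.42 and −0.37 at 3 h and −0.48 and −0.37 at 48 h. From 3 h to 48 h the difference was −0.03 ± 0.10, with a 95% interval of −0.25 to 0.19, so these neighbours in the order did not differ beyond their spread.

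In 35S::RDM4 the group means of RDM4 ran from high to low in the order 0 h, 3 h and 48 h, but the 3 h against 0 h difference of −0.16 was not called (adjusted p = 0.166) and was 0.02 under quantile normalization. The levels read 6.10 and 5.90 before cold, 5.91 and 5.77 after 3 h, and 5.70 and 5.44 after 48 h. The 0 h and 3 h arrays overlapped, whereas the 48 h arrays lay below all others. The fall of RDM4 by 0.43 from 0 h to 48 h was called (adjusted p = 0.00334), and within the second scan day, where all that can be compared is 1 array at 0 h with both at 48 h, the difference was −0.32. The fall by 0.26 from 3 h to 48 h was called (adjusted p = 0.0342) but was not without the first 3 h array of 35S::RDM4 (−0.19, adjusted p = 0.177) or without its second 48 h array (−0.13, adjusted p = 0.229). The difference between the genotypes' RDM4 responses at 48 h was 0.00, with an interval of −0.31 to 0.31, on the scale set by the 75th percentile. At 3 h the difference between the responses was 0.24 ± 0.14 (adjusted p = 0.304).

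Signals as bright as that of the overexpressed RDM4 followed the brightness of the array less than dimmer ones. For the other 107 probes whose mean signal lay between 199672 and 293236, the slope of log2 signal on the log2 75th percentile over the 12 arrays had a median of 0.541 and an interquartile range of 0.411 to 0.653. For 4509 probes in the range of wild-type RDM4, from 3995 to 7591, the median slope was 0.988. A slope of 1 is what the scaling assumes. Under quantile normalization the 48 h difference of RDM4 in 35S::RDM4 shrank from −0.43 to −0.15 (adjusted p = 0.00484). The RDM4 difference between responses was then called at both times, with 0.42 at 3 h and 0.29 at 48 h.

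Most of the 20794 loci were called different in each comparison of times, so counts of subunit genes need that background. At 3 h against 0 h in wild type, 1 of the 9 subunit genes was called higher and 3 lower, where 30.9% of all loci were called higher and 37.2% lower. For 48 h against 0 h, 4 were higher and 1 lower, against 39.7% and 39% of all loci. From 3 h to 48 h, 6 were higher and 1 lower, against 41% and 35%. In 35S::RDM4, 1 subunit gene was higher and 5 lower at 3 h against 0 h, against 32.9% and 37.1% of all loci. From 0 h to 48 h, 4 were higher and 1 lower, against 40.8% and 38.7%, and at 48 h against 3 h, 5 were higher and 0 lower, against 40.8% and 35%. With 9 genes, each step of 1 gene moves a share widely, and these shares were not tested against those of all loci. With NRPB9A, which was near background, left aside, the median difference of the other 8 at 48 h against 0 h was 0.09 in wild type and 0.12 in 35S::RDM4, where the medians over all loci were −0.002 and 0.009.

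**Figure D2:**
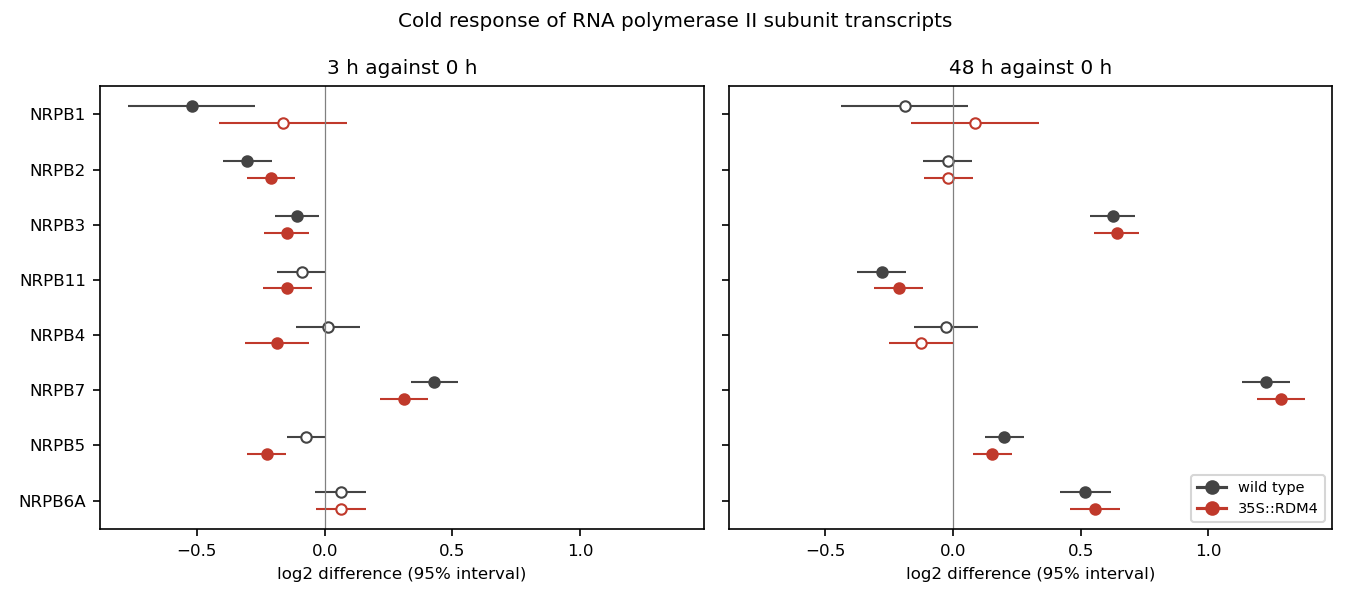
Log2 differences of 8 subunit transcripts at 3 h and 48 h of cold against 0 h, with 95% intervals from limma (n = 2 arrays per group), for wild type (grey) and 35S::RDM4 (red). Filled points were called at adjusted p below 0.05. NRPB7 reaches 1.23 and 1.28 at 48 h, NRPB3 0.63 and 0.64, NRPB6A 0.52 and 0.56, and NRPB11 −0.28 and −0.21. NRPB9A is left out because its signal was near background.

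The catalytic centre is formed by NRPB1, the largest subunit, which carries the C-terminal repeat domain phosphorylated during transcription, together with NRPB2. The NRPB1 levels in wild type were −0.64 and −0.86 at 0 h, −1.25 and −1.29 at 3 h, and −0.92 and −0.96 at 48 h. The 3 wild-type groups of NRPB1 did not overlap and the 3 h group was the lowest. NRPB1 fell by 0.52 ± 0.11 at 3 h (1.44-fold lower, adjusted p = 0.0027) and at 48 h was 0.33 ± 0.11 higher than at 3 h (adjusted p = 0.0214). The later rise was not called when any 1 of the 4 arrays compared was left out.

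In 35S::RDM4 the NRPB1 levels were −0.95 and −1.01 at 0 h, −1.27 and −1.02 at 3 h, and −0.78 and −1.01 at 48 h. The arrays of 3 h, and likewise those of 48 h, spread about as widely as the group means here, and no NRPB1 difference in time was called. The 3 h difference was −0.16, with an interval of −0.41 to 0.09. The difference between the genotypes' 3 h responses of NRPB1 was 0.36 ± 0.15, with an interval of 0.01 to 0.71 and an adjusted p of 0.181, so a differing response was not called.

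NRPB2, the other large subunit, had levels of 1.27 and 1.26, 0.98 and 0.94, and 1.25 and 1.23 in wild type at 0, 3 and 48 h. In 35S::RDM4 the NRPB2 levels were 1.25 and 1.16, 0.98 and 1.01, and 1.22 and 1.15. In both genotypes the 3 h arrays lay below all 0 h and 48 h arrays. NRPB2 fell by 0.30 ± 0.04 at 3 h in wild type (adjusted p = 0.000238) and by 0.21 in 35S::RDM4 (adjusted p = 0.00191). It then rose by 0.28 from 3 h to 48 h in wild type and by 0.19 in 35S::RDM4. At 48 h against 0 h the NRPB2 differences were −0.02 in both genotypes, with an interval of −0.12 to 0.07 in wild type.

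The return of NRPB2 rested on the brighter of its 2 probes. The second NRPB2 probe was dim, with signals of 86.6 to 197 although above background on all 12 arrays. It gave −0.29 at 3 h in wild type and −0.20 in 35S::RDM4, close to the bright probe. From 0 h to 48 h the dim NRPB2 probe gave −0.44 ± 0.08 in wild type (adjusted p = 0.00123) and −0.65 ± 0.08 in 35S::RDM4 (adjusted p = 0.000122), where the bright probe gave −0.02. The probes of NRPB2 disagree at 48 h. With their mean the 48 h against 3 h difference was 0.06 in wild type (adjusted p = 0.301) and −0.13 in 35S::RDM4 (adjusted p = 0.0524), and the 48 h against 0 h difference was called, at −0.23 (adjusted p = 0.00363) and −0.33 (adjusted p = 0.000428). NRPB1 also had a second, dim probe, with signals of 45.7 to 355, on which no difference was called. With the mean of the NRPB1 probes, the wild-type 3 h difference was −0.44 and was not called (adjusted p = 0.36). The arrays of 35S::RDM4 at 0 h (replicate 1) and at 3 h (replicate 2) stood apart from the other 10 on that NRPB1 probe.

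**Figure D3:**
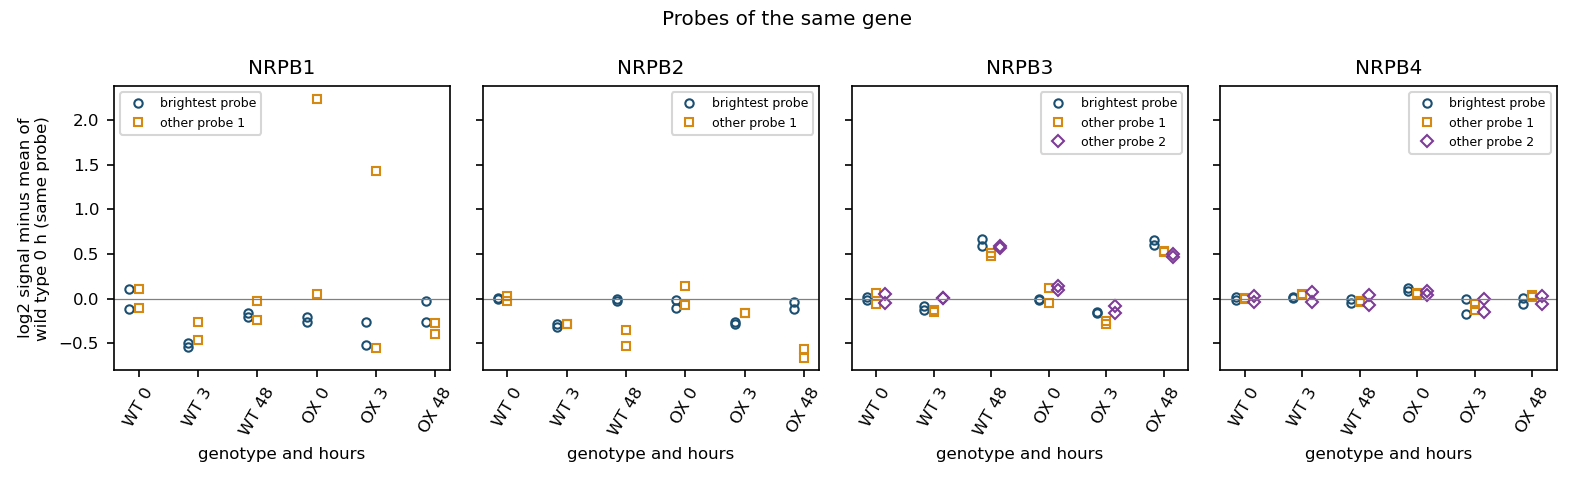
Level of each probe of NRPB1, NRPB2, NRPB3 and NRPB4 by array, in log2 units relative to the same probe's mean in wild type at 0 h; groups are named by genotype (WT, OX for 35S::RDM4) and hours at 4 °C. The 3 probes of NRPB3 rise together at 48 h and the 3 of NRPB4 stay near 0, whereas the NRPB2 probes part at 48 h and the dim NRPB1 probe scatters in 35S::RDM4.

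NRPB3 and NRPB11 form the pair on which the polymerase is assembled, the counterpart of the paired alpha subunits of the bacterial enzyme. Their transcripts moved in opposite directions at 48 h in both genotypes. The NRPB3 levels in wild type were 0.81 and 0.78 at 0 h, 0.66 and 0.70 at 3 h, and 1.38 and 1.46 at 48 h. In 35S::RDM4 they were 0.78 and 0.79, 0.63 and 0.64, and 1.39 and 1.45. The 48 h arrays were the highest in both genotypes and the groups of a genotype did not overlap. NRPB3 rose by 0.63 ± 0.04 from 0 h to 48 h in wild type (adjusted p = 9.2e-07) and by 0.64 in 35S::RDM4 (adjusted p = 7.76e-07). These differences stood at the 82nd and 81.3rd percentile of all loci.

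All 3 NRPB3 probes were called higher at 48 h, with 0.63, 0.49 and 0.58 in wild type and 0.64, 0.49 and 0.37 in 35S::RDM4. The small 3 h differences of NRPB3, −0.11 in wild type (adjusted p = 0.0335) and −0.15 in 35S::RDM4 (adjusted p = 0.00797), were called too. The wild-type value was not called when any 1 of its 4 arrays was left out, and 1 of its 3 probes gave 0.01. The wild-type call was also lost with normexp, median scaling, the value table, the scanner's median signal and a fit of the compared arrays alone. It held in 16 of 26 alternative settings. In 35S::RDM4 the call was lost with normexp, the value table and the scanner's median signal. With slide as a block neither was called (adjusted p = 0.0589 and 0.0725). NRPE3B, a paralog close to NRPB3, has 1 probe on the array, and whether probes of such paralogs share signal was not tested.

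NRPB11 is the smaller partner. Its levels in wild type were 2.27 and 2.22 at 0 h, 2.17 and 2.14 at 3 h, and 1.93 and 2.00 at 48 h. In 35S::RDM4 they were 2.19 and 2.23, 2.05 and 2.07, and 2.04 and 1.95. The 48 h arrays were below the 0 h arrays in both genotypes, and in 35S::RDM4 the first 48 h array lay close to the 3 h arrays. NRPB11 fell by 0.28 ± 0.04 from 0 h to 48 h in wild type (1.21-fold lower, adjusted p = 0.000296) and by 0.21 in 35S::RDM4 (1.16-fold lower, adjusted p = 0.00149). Within slides the wild-type difference of NRPB11 was −0.34 and −0.22, and that of NRPB3 was 0.57 and 0.68.

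NRPB4 and NRPB7 form the stalk, which can come off the core in yeast. NRPB7 rose at each step of the cold course. Its levels in wild type were −0.69 and −0.63 at 0 h, −0.23 and −0.23 at 3 h, and 0.57 and 0.57 at 48 h. In 35S::RDM4 they were −0.63 and −0.55, −0.26 and −0.30, and 0.67 and 0.72. The order 0 h, 3 h, 48 h was the same in both genotypes, with no overlap between times. NRPB7 rose by 0.43 ± 0.04 at 3 h in wild type (1.35-fold, adjusted p = 2.41e-05) and by 0.31 in 35S::RDM4 (1.24-fold, adjusted p = 0.000168).

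After 48 h NRPB7 was higher than at 0 h by 1.23 ± 0.04 in wild type (adjusted p = 2.53e-08) and by 1.28 in 35S::RDM4 (adjusted p = 1.98e-08). These differences of NRPB7 were at the 93.8th and 93.6th percentile of all loci, the highest among the 10 genes. Within slides the wild-type difference was 1.26 and 1.19, and within the second scan day it was 1.24 in 35S::RDM4. NRPB7 had 1 probe on the array, as had NRPB5, NRPB6A and NRPB11, so no other probe could be set beside it. Whether the probe of NRPB7 shares signal with paralogs was not tested. NRPB7 was called in all 6 comparisons of times under each of the 26 alternative settings.

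NRPB4, the partner of NRPB7 in the stalk, gave another picture. Its levels in wild type were 2.22 and 2.18 at 0 h, 2.22 and 2.20 at 3 h, and 2.15 and 2.20 at 48 h, and no difference was called. The interval of the wild-type 48 h against 0 h difference of NRPB4 was −0.15 to 0.10, which lies below the whole interval of NRPB7, 1.13 to 1.32. Its 3 probes gave differences of −0.03, −0.03 and −0.01. In 35S::RDM4 the NRPB4 levels were 2.28 and 2.31, 2.19 and 2.03, and 2.14 and 2.20. The 0 h arrays were the highest there, and the fall by 0.19 ± 0.05 at 3 h was called (adjusted p = 0.0152), whereas the 48 h difference of −0.12 was not (adjusted p = 0.0637). On the other 2 probes of NRPB4 the 3 h arrays also lay below the 0 h arrays in 35S::RDM4. Their mean levels at 0 h and 3 h were 1.57 and 1.42 on one probe and 0.60 and 0.46 on the other. On the brightest probe, the 3 h fall of NRPB4 rested largely on the second 3 h array: without it the difference was −0.10 and was not called. It was also not called without the second 0 h array (−0.17, adjusted p = 0.0753), with slide as a block (−0.08, adjusted p = 0.204), with only the arrays compared (adjusted p = 0.0656) or with the deposited value table (adjusted p = 0.18).

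NRPB5 and NRPB6A belong to the subunit types that nuclear polymerases share or hold in related forms. The NRPB5 levels in wild type were 2.62 and 2.59 at 0 h, 2.55 and 2.51 at 3 h, and 2.78 and 2.83 at 48 h. In 35S::RDM4 they were 2.68 and 2.70, 2.48 and 2.45, and 2.86 and 2.84. The order from low to high was 3 h, 0 h, 48 h in both genotypes. NRPB5 was 0.20 ± 0.03 higher at 48 h than at 0 h in wild type (adjusted p = 0.000554) and 0.15 higher in 35S::RDM4 (adjusted p = 0.00257). At 3 h it fell by 0.23 in 35S::RDM4 (adjusted p = 0.000348), while the wild-type difference was −0.07 (adjusted p = 0.0857). The difference between these NRPB5 responses was −0.16 ± 0.05, with an interval of −0.26 to −0.05 and an adjusted p of 0.0851, and was not called.

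NRPB6A, known from its yeast counterpart for a role in holding the polymerase together, rose late. Its levels in wild type were 0.49 and 0.43 at 0 h, 0.51 and 0.53 at 3 h, and 0.98 and 0.97 at 48 h. In 35S::RDM4 they were 0.51 and 0.55, 0.58 and 0.61, and 1.03 and 1.14. The 48 h arrays lay well above the others in both genotypes, and the 3 h differences of 0.06 were not called. NRPB6A rose by 0.52 ± 0.04 from 0 h to 48 h in wild type (adjusted p = 6.33e-06) and by 0.56 in 35S::RDM4 (adjusted p = 3.95e-06).

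NRPB9A, whose yeast counterpart helps in choosing the start site and in proofreading, was barely measured. Its processed signal was 24.7 and 40.7, 41.1 and 39.9, and 44.9 and 34.1 in wild type at 0, 3 and 48 h, and 39.4 and 39.6, 30.9 and 22.5, and 25.7 and 39.3 in 35S::RDM4. It was well above background on 6 of 12 arrays and on both arrays only in 35S::RDM4 at 0 h, the group through which it passed the filter. On both 48 h arrays of 35S::RDM4 it was not well above background. No fold is given for NRPB9A and no difference was called.

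The 2 genotypes' cold courses of the subunit genes can be set side by side. At 48 h against 0 h, 5 subunit genes were called in each genotype, and these were the same 5 in the same direction: NRPB3, NRPB5, NRPB6A and NRPB7 higher and NRPB11 lower. Of all loci, 39.7% were called higher and 39% lower in wild type, and 40.8% and 38.7% in 35S::RDM4. The share of all loci called in both genotypes was not computed, so the shared calls have no background to be read against. With slide as a block NRPB5 was not called in 35S::RDM4 (0.19, adjusted p = 0.0753), and NRPB1 was called in wild type (−0.19, adjusted p = 0.0424). At 3 h against 0 h, 3 genes were called in both: NRPB7 higher, and NRPB2 and NRPB3 lower. The wild-type call of NRPB3 held in only 16 of the 26 alternative settings. NRPB1 was called in wild type alone at 3 h, and NRPB4, NRPB5 and NRPB11 in 35S::RDM4 alone. At 3 h, 30.9% of all loci were higher and 37.2% lower in wild type, and 32.9% and 37.1% in 35S::RDM4. Here too the share called in both genotypes was not computed. The difference of responses was called for none of the 9 genes at 3 h, where it was called for 7.33% of all loci, and for none at 48 h, where it was called for 5.49%. At an unadjusted p below 0.05 it stood for 3 genes at 3 h (NRPB1, NRPB4 and NRPB5) and 0 at 48 h, against 26.7% and 18.8% of all loci. With slide as a block the difference of responses was called for 95 of the 20794 loci at 3 h and for 259 at 48 h. Without the first 3 h array of 35S::RDM4, the 3 h difference of NRPB4 was called, at −0.28 (adjusted p = 0.0419), but without the second it was −0.12 (adjusted p = 0.37) and with slide as a block −0.10 (adjusted p = 0.41). The number called at 3 h in 35S::RDM4, 6 genes, was 4 with slide as a block: NRPB3 (adjusted p = 0.0725), NRPB4 and NRPB11 (adjusted p = 0.0993) were no longer called, and NRPB1 was, at −0.32 (adjusted p = 0.0342). It was 3 with normexp background correction and 3 with the scanner's median signal, NRPB2, NRPB3 and NRPB11 being lost in both, and 1 with the deposited value table. NRPB11 was also not called there without the second 0 h or the first 3 h array.

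Overexpression of RDM4 was compared with wild type at each time to ask whether the polymerase transcripts differed with it. Limma called 0 of 9 subunit genes at 0 h, 0 at 3 h and 0 at 48 h, where 12.9%, 4.89% and 3.7% of all loci were called in either direction. This fit did not include slide, and no slide held both genotypes at 0 h or 3 h. At an unadjusted p below 0.05 there were 1, 0 and 2 genes, against 29.1%, 26.1% and 16.9% of all loci: NRPB5 at 0 h, higher by 0.09, and NRPB6A and NRPB7 at 48 h, higher by 0.11 and 0.12. The 2 arrays of each genotype did not overlap for 5, 7 and 5 of the 9 genes, and for 59.2%, 60.7% and 45.3% of all loci. A count of 0 was also found under each of the 14 other settings at all 3 times, but some of these called few loci at all. With slide as a block, 79, 28 and 277 of the 20794 loci were called at 0, 3 and 48 h. At 3 h, 17 loci were called with normexp and 15 with only the arrays compared. A count of 0 of 9 says little under such settings.

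With NRPB9A left aside, differences of 35S::RDM4 minus wild type ran from −0.23 to 0.10 at 0 h, from −0.10 to 0.13 at 3 h and from −0.06 to 0.12 at 48 h. Over the 8 genes, 95% intervals reached from −0.48 (NRPB1) to 0.22 (NRPB4) at 0 h, from −0.23 (NRPB4) to 0.38 (NRPB1) at 3 h, and from −0.21 to 0.29 (both NRPB1) at 48 h. Within a scan day the differences of these 8 genes ran from −0.32 to 0.27 over all times, and within the slide that held both genotypes at 48 h from −0.06 to 0.19.

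**Figure D4:**
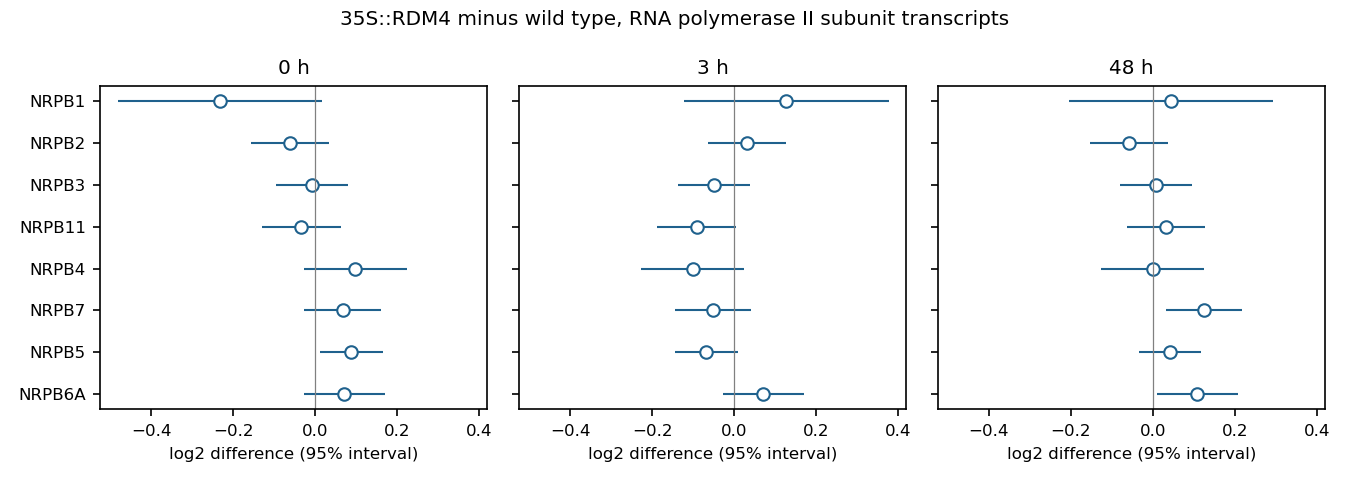
Log2 difference of 35S::RDM4 minus wild type for 8 subunit transcripts at 0, 3 and 48 h, with 95% intervals from limma (n = 2 arrays per group). No point was called at adjusted p below 0.05, and the widest intervals are those of NRPB1, from −0.48 to 0.02 at 0 h. NRPB9A is left out because its signal was near background.

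Transcripts with the course most like that of NRPB1 were sought over the 12 arrays, by the root mean square difference of levels after each gene's mean was removed. The 3 closest to NRPB1 were CEF (AT3G44340), at 0.0495, AT3G50370, at 0.0509, and CID4 (AT3G14010), at 0.0655, where NRPB1 itself deviated from its mean by a root mean square of 0.19. For RDM4 the closest was AT4G11300 at 1.97, where RDM4 itself deviated by 2.78. Among the 20794 loci the difference of 35S::RDM4 minus wild type was highest for RDM4 at 0 h and 48 h, and at 3 h RDM4 ranked 2.

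Other genes of the transcription machinery were grouped by their known place in it. These lists were chosen with earlier results of these data known, so their counts are no test against the shares of all loci. Of 17 further polymerase II subunit genes and paralogs that serve polymerases IV and V, 15 were tested; AT1G61700 was not above background on both arrays of any group and AT1G53690 had no matched probe. At 48 h against 0 h, 10 of the 15 were higher and 2 lower in wild type, where 39.7% and 39% of all loci were. In 35S::RDM4, 9 were higher and 4 lower, against 40.8% and 38.7%. NRPE7, a paralog of NRPB7, was higher by 1.32 in wild type and 1.38 in 35S::RDM4, NRPB9B, the paralog of NRPB9A, by 1.12 and 1.13, and NRPB12, one of the small core subunits, by 0.95 and 1.01. AT4G14520, which is related to NRPB7 as well, fell by 0.97 and 1.03. Genes of the NRPB7 type moved in both directions.

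At 3 h against 0 h, 3 of these 15 were higher and 8 lower in wild type, against 30.9% and 37.2% of all loci, and 0 higher and 8 lower in 35S::RDM4, against 32.9% and 37.1%. RPB5D and NRPE5, both paralogs of NRPB5, fell by 0.87 and 0.58 in wild type and by 1.01 and 0.56 in 35S::RDM4. RPB5E, another of that family, rose by 1.21 in wild type and was 0.34 higher in 35S::RDM4 (adjusted p = 0.224), with a difference of responses that was not called (adjusted p = 0.146). Between the genotypes, 1 of the 15 was called, at 3 h: NRPD7, a paralog of NRPB7, was lower by 0.25 in 35S::RDM4 (adjusted p = 0.0372). Its 3 h response was also called different, by −0.34 (adjusted p = 0.0291). Over all loci, 4.89% were called between the genotypes at 3 h and 7.33% for the 3 h responses. With slide as a block, 28 and 95 of the 20794 loci were. Values of NRPD7 under the alternative settings are not given here.

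**Figure D5:**
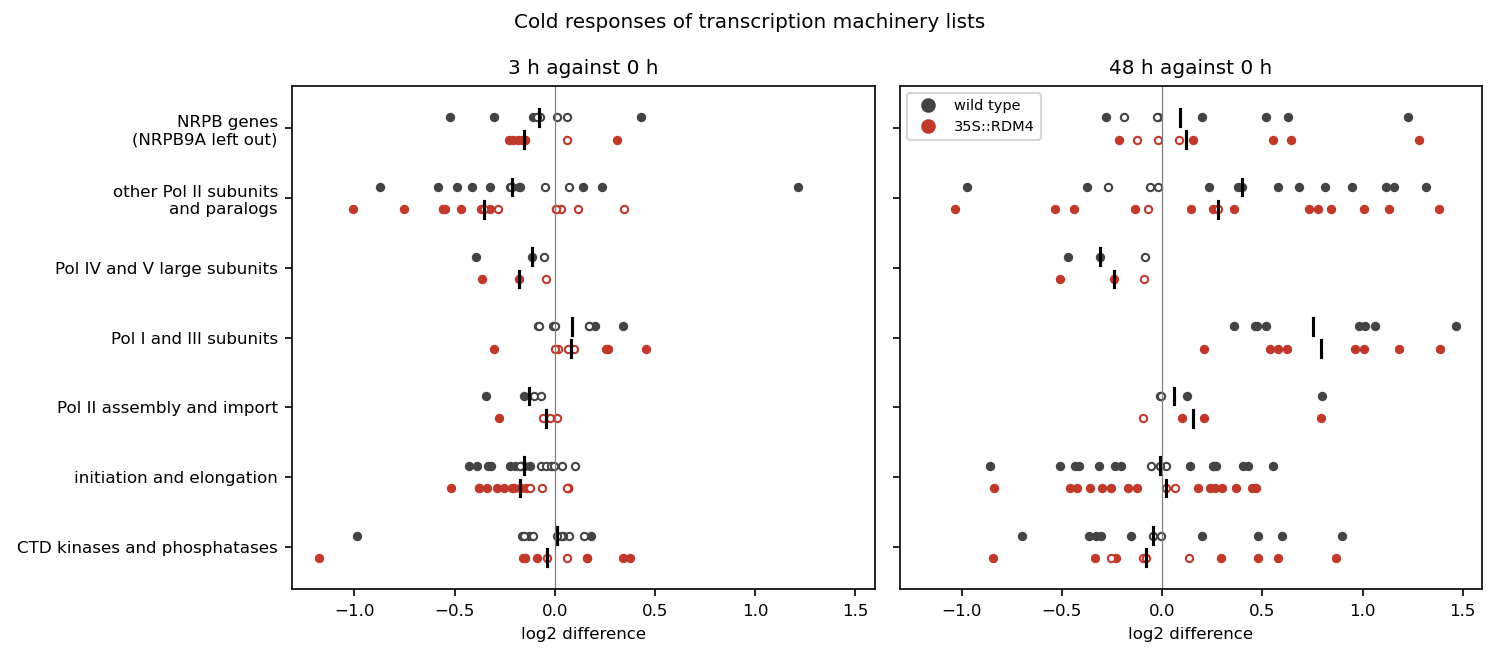
Log2 differences at 3 h and 48 h of cold against 0 h for the measured NRPB genes and 6 lists of related genes, with wild type in grey above 35S::RDM4 in red. Each point is a gene, filled where called at adjusted p below 0.05, and the black bars are medians. All 8 listed polymerase I and III genes lie above 0 at 48 h in both genotypes, with medians of 0.75 and 0.79. The lists were chosen with earlier results of these data known.

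Polymerases I and III make ribosomal RNA, transfer RNA and other small RNAs. All 8 subunit genes listed for them were called higher at 48 h than at 0 h in both genotypes, where 39.7% of all loci were in wild type and 40.8% in 35S::RDM4. Because the list was chosen with earlier results known, the count cannot be read as a result against these shares. NRPA1, the largest subunit of polymerase I, rose by 1.46 in wild type and 1.39 in 35S::RDM4, NRPA2 by 1.01 in each, and NRPC2, of polymerase III, by 1.06 and 1.18. The large subunits of polymerases IV and V did not share this course: NRPD1A fell by 0.31 in wild type and 0.24 in 35S::RDM4, NRPD1B fell by 0.47 and 0.51, and NRPD2A was not called (−0.09 in each). At 3 h NRPD1B was 0.19 higher in 35S::RDM4 than in wild type (adjusted p = 0.0413), where 4.89% of all loci were called.

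Of 4 genes for assembly and nuclear import of the polymerase, the step in which Iwr1 acts in yeast, IYO rose by 0.80 at 48 h in wild type and 0.79 in 35S::RDM4, and QQT1 fell by 0.34 and 0.28 at 3 h. Of 17 initiation and elongation factor genes tested, 0 were higher and 10 lower at 3 h in wild type, where 30.9% and 37.2% of all loci were. In 35S::RDM4, 0 were higher and 11 lower, against 32.9% and 37.1%. TBP2, a TATA-binding protein, fell by 0.86 and 0.84 at 48 h, and ELF8, of the Paf1 complex that travels with the elongating polymerase, rose by 0.55 and 0.47. Of 11 kinase and phosphatase genes acting on the NRPB1 repeat domain, CDKD1;3 rose by 0.90 and 0.87 at 48 h. AT1G73820, which encodes a phosphatase of the Ssu72 type, fell by 0.98 and 1.18 at 3 h. In these last 3 lists and the polymerase I and III list, 0 genes were called between the genotypes at any time.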

How the data were processed

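Per the file headers, the authors scanned one-colour arrays with Agilent Feature Extraction 10.7.1.1 (protocol GE1_107_Sep09) and deposited the processed signal, a linear intensity after background correction. Their deposited value table holds the scanner's median signal intensity in 11 of 12 columns. The annotation build named in the headers is not that of the reference table used for names, so no coordinates are printed, and no sequence is printed. Here, 34267 of 43603 probes were matched to a locus by RefSeq accession. Probes well above background on both arrays of at least 1 group were kept (33198) after leaving out 110 with outlier flags, and the brightest kept probe stood for a locus. The log2 processed signal, from the deposited intensity, minus each array's 75th percentile was fitted in limma 3.58.1 (R 4.3.3) with 6 group means over all 12 arrays, giving 6 residual and 2.08 prior degrees of freedom. P-values were adjusted by Benjamini-Hochberg over 20794 loci, with a threshold of 0.05, in 11 comparisons. The fit was tested on simulated data. From each list of related genes, up to 4 called members per comparison with the largest differences could be named; NRPD2A, NRPD7 and genes with values repeated in another comparison are also given. The 10 genes and the lists were chosen with earlier results of these data known. Alternatives were normexp (offset 50), quantile and median scaling, the value table, no filter or a filter on all 12 arrays, the mean over probes of a gene, a fit of the compared arrays alone, replicate, scan day and slide blocks, a trended variance, and leaving out each array. The scanner's median signal was added after seeing the data.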

Additional observations from a re-analysis of the deposited data

Results flagged for a closer look

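None of the 10 genes had a cold response that was called different between the genotypes, but NRPD7, a paralog of NRPB7, did. Its log2 response to 3 h of cold, 3 h minus 0 h, was −0.55 in 35S::RDM4 and −0.21 in wild type, a difference of −0.34 ± 0.07 (SE, n = 2 a group, limma, adjusted p = 0.0291). NRPD7 was called lower at 3 h in both genotypes. The difference of responses at 3 h was called for 7.33% of all loci. With normexp it was called for 393 of the 20794 loci, and with slide as a block for 95. No slide held both genotypes at 0 h or 3 h, and values of NRPD7 under the alternative settings are not given here.

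The root markers measured in the leaf RNA also responded differently. The difference of the log2 responses at 3 h, 35S::RDM4 minus wild type, was 0.70 for EIR1, an auxin transporter gene (adjusted p = 0.00953), 0.54 for IRT1, an iron transporter gene (adjusted p = 0.00571), 0.42 for the aquaporin gene TIP2;3 (adjusted p = 0.0411), 0.39 for SHV2 (adjusted p = 0.0357) and 0.30 for the root hair expansin gene EXPA7 (adjusted p = 0.0432). At 48 h it was 0.59 for IRT1 (adjusted p = 0.0025) and was not called for the other 4. Over all loci the difference of responses was called for 7.33% at 3 h and 5.49% at 48 h. With slide as a block it was called for 95 and 259 of the 20794 loci. The part of the root markers in the results on the subunits was not tested.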

How the results depend on the processing

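Each result was recomputed under 14 other settings and with each of the 12 arrays left out. Of 832 alternative values of the 32 called differences of single subunit genes, 793 kept direction and call, 38 were no longer called and 1 reversed; of 1731 values for the 67 differences not called, 30 were called, and 277 of 286 RDM4 values were unchanged in direction and call. The number of subunit genes called at 3 h in 35S::RDM4 was 6, and 3 with normexp, 1 with the value table and 3 with the scanner's median signal. Over the 20794 loci, 6842 were called higher and 7710 lower in that comparison. In either direction, 12236 were called with normexp, 13107 with the value table and 13351 with the scanner's median signal. The number for the difference of responses at 3 h was 0, and 0 to 1 without single arrays.

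RDM4 at 3 h against 0 h in 35S::RDM4 was called with slide as a block (−0.19, adjusted p = 0.0417). The RDM4 fall from 3 h to 48 h there was not called with median scaling (−0.23, adjusted p = 0.0629), without the background filter (−0.26, 0.0547), with scan day as a block (−0.22, 0.0638) or with only the arrays compared (−0.26, 0.0847), and ran from −0.40 to −0.13 without single arrays. With quantile normalization the RDM4 difference of responses was 0.42 at 3 h (adjusted p = 0.00417) and 0.29 at 48 h (0.0181), the latter reversed from −0.0005. The NRPB2 difference between 48 h and 3 h in 35S::RDM4 reversed to −0.13 with the mean of its probes, which differ at 48 h. For the others the cause was not tested.

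Deviations of same-numbered arrays correlated at 0.167 to 0.286 between the wild-type groups, where the number coincides with slide and scan day, and at −0.0537 to 0.136 for the other pairs of groups; the labels do not say that the numbers pair the samples. With a replicate block, 7 subunit genes rather than 6 were called at 3 h in 35S::RDM4, the added one being NRPB9A, and the other counts were as without it: 4, 5 and 7 in wild type, 5 and 5 in 35S::RDM4 and 0 for each comparison of genotypes and responses. NRPB9A passed the filter only through the 0 h arrays of 35S::RDM4, the higher group of that 3 h comparison, so its added call is not read as a fall. With the block, 14967 of the 20794 loci were called in the same comparison. Groups of 2 allow no test for a sample that stands apart. The signal of NRPB9A near background limits what can be said of it, and with 2 arrays per group the intervals are wide for NRPB1.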
